A study of Rattus norvegicus with 9 samples.

Results

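The Wnt signalling genes described here are the secreted ligand Wnt5a, the 7 secreted antagonists Frzb, Sfrp1, Sfrp2, Sfrp4, Dkk2, Dkk3 and Wif1, and the 2 target genes Axin2 and Lef1. They were taken from the array's value table as the features whose only annotated gene symbol is 1 of these 10 names. Each of the 10 genes had exactly 1 such feature, so they are 10 of the 14506 genes tested. All 10 entered the tests, since no gene was left out for a low value.

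Wnt ligands are secreted glycoproteins that bind Frizzled receptors, and the LRP5 and LRP6 co-receptors pass the signal of the canonical ligands on to beta-catenin. Beta-catenin then acts with the TCF and LEF transcription factors on targets such as Axin2. Secreted Frizzled-related proteins (the Sfrp family, which includes Frzb) and Wif1 bind Wnt proteins outside the cell. Of the Dickkopf proteins, Dkk2 acts on the co-receptors, while Dkk3 is a divergent member counted here with the antagonists. In the Schwann cell lineage and in dermal cells of the skin, Wnt signals are known from studies of development, myelination and the dermal papilla.

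The samples were cell cultures from adult rats of the Sprague Dawley strain, with no labelled genetic change, run on 9 Affymetrix Rat Gene 1.0 ST arrays in 3 groups of 3. Skin-derived precursors (SKPs) are sphere-forming cells grown from dorsal trunk skin under conditions that promote proliferation, and their spheres were lysed after passaging. SKP-derived Schwann cells came from such spheres plated in Schwann cell growth medium. Nerve Schwann cells were dissociated from the sciatic nerve and grown in that medium, and both kinds of Schwann cell were passaged once and lysed when confluent. The series describes the samples of each group as independent, and does not say how many rats stand behind each of them. The SKPs were therefore lysed as spheres and both Schwann cell groups as confluent cultures in another medium, so cell type and culture cannot be told apart in any comparison with the SKPs. Per the labels the SKP arrays were reanalysed from an earlier deposit, and an array batch and the SKP group cannot be told apart either. The labels' tissue field reads dermis for all 9 arrays, including the sciatic nerve cells, and the sample titles and cell type field set the groups.

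The cell type labels were checked against marker genes. The mean log2 value of the 8 measured Schwann cell markers lay between 11.19 and 11.35 in nerve Schwann cells and between 10.23 and 11.14 in SKP-derived Schwann cells. In SKPs it lay between 5.30 and 5.46, and all 8 markers were called higher in each Schwann cell group. The mean of 12 dermal mesenchyme markers was 12.01, 11.94 and 10.43 in SKP arrays 1, 2 and 3, and 9 of the 12 were called lower in each Schwann cell group. The deposited scale also differed between groups: array medians over the whole table ran from 6.82 to 6.87 for nerve Schwann cells, from 6.33 to 6.44 for SKP-derived ones and from 6.2 to 6.27 for SKPs. The median gene's difference was 0.46 for nerve Schwann cells minus SKPs, -0.01 for SKP-derived Schwann cells minus SKPs, and -0.45 for SKP-derived minus nerve cells. After cyclic loess, which aligns the arrays with each other, these shifts were -0.03, -0.03 and -0.02, and loess values are given beside the deposited ones.

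Wnt5a, Sfrp2, Dkk3, Wif1 and Lef1 were lower in both kinds of Schwann cell than in SKPs, and Sfrp1 was higher in both. In SKP-derived Schwann cells the Lef1 call was lost when any of 8 arrays was left out. Axin2 was called lower in SKP-derived Schwann cells, a call lost without any of 4 arrays, and its call in nerve Schwann cells depended on the scaling and on SKP array 3. Sfrp4 and Dkk2 varied with single arrays, and Frzb was called in no comparison. Between nerve and SKP-derived Schwann cells, Dkk3 was the only 1 of the 10 genes called, and it was not called after loess.

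Wnt5a, a ligand known mostly for signalling that does not pass through beta-catenin, had log2 values of 10.84, 10.55 and 9.23 in SKP arrays 1, 2 and 3. The nerve Schwann cell arrays stood at 6.41, 6.64 and 6.17, and the SKP-derived Schwann cell arrays at 6.08, 7.09 and 6.32. Every SKP array was above every Schwann cell array, and the Schwann cell groups overlapped. The group means were 6.41 ± 0.23 (SD, n = 3) in nerve Schwann cells, 6.50 ± 0.53 (SD, n = 3) in SKP-derived Schwann cells and 10.21 ± 0.86 (SD, n = 3) in SKPs. Nerve Schwann cells were 13.9-fold below SKPs, a log2 difference of -3.80 with a standard error of 0.40 and a limma adjusted p of 6.97e-05 (loess -4.14). SKP-derived Schwann cells were 13.1-fold below SKPs, with a log2 difference of -3.71 and a limma adjusted p of 0.000109 (loess -3.68). Both comparisons use the same 3 SKP arrays and are not independent of each other. The difference between SKP-derived and nerve Schwann cells was 0.09, with a 95% interval from -0.81 to 1.00 and a limma adjusted p of 0.865. Each array holds RNA of a whole culture, so fewer cells of a type and less RNA per cell cannot be told apart here or for the genes that follow.

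**Figure D1:**
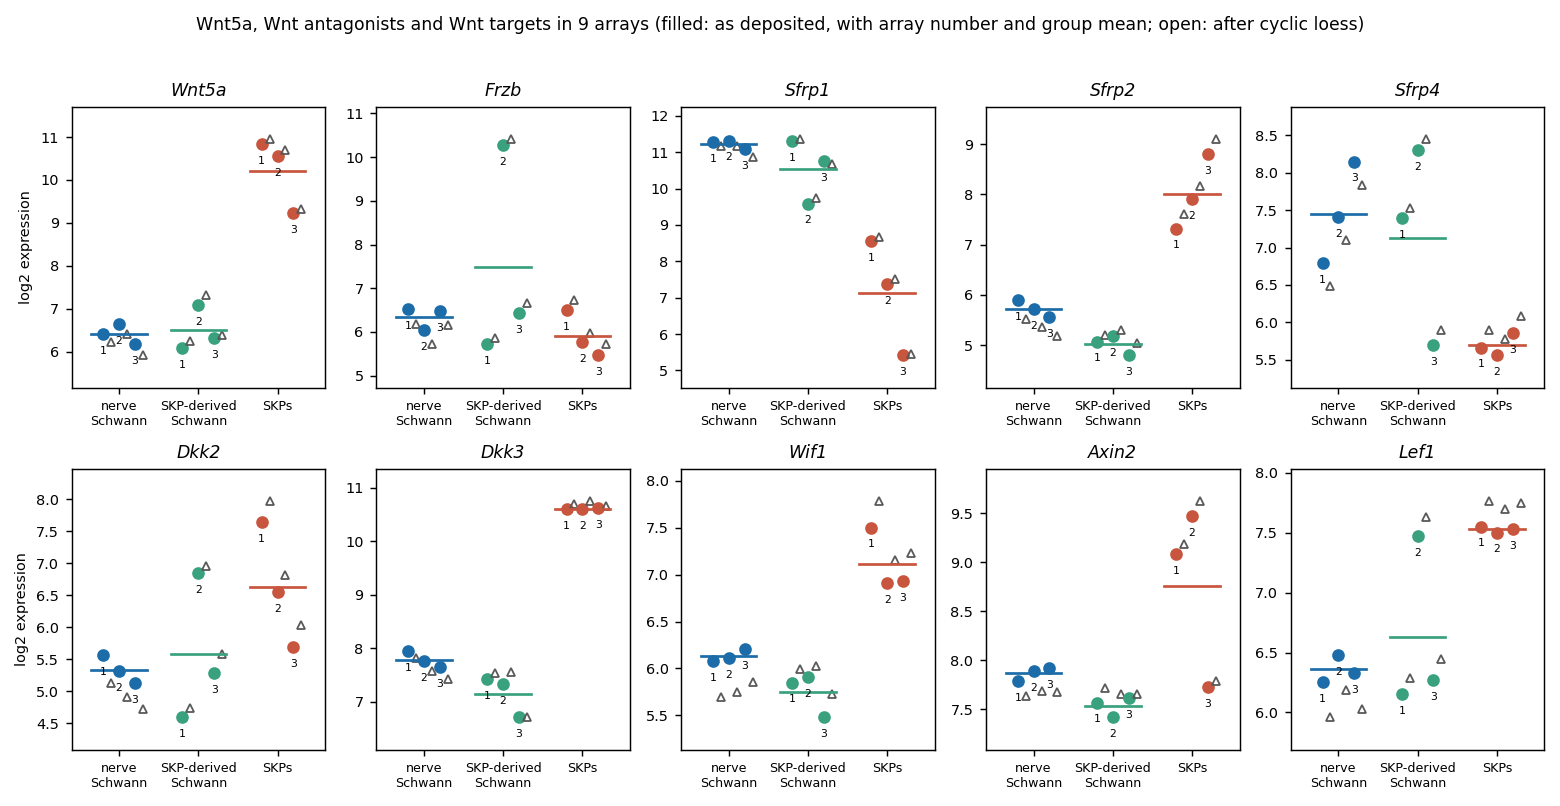
Log2 expression of the 10 genes in each of the 9 arrays, by cell group, with 1 panel and its own vertical axis per gene. Filled points are the deposited values with the array number below, lines are their group means, and open triangles are the values after cyclic loess. Wnt5a, Sfrp2, Dkk3, Wif1 and Lef1 lie higher in all 3 SKP arrays than in all 6 Schwann cell arrays. For Lef1 the gap is small, with SKP-derived Schwann cell array 2 at 7.47 and the lowest SKP array at 7.50. Sfrp1 lies lower in all 3 SKP arrays, and Frzb is high in SKP-derived Schwann cell array 2, at 10.27.

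Of the secreted Frizzled-related antagonists, Sfrp1 had log2 values of 11.28, 11.32 and 11.09 in nerve Schwann cells and 11.30, 9.59 and 10.75 in SKP-derived Schwann cells. In SKPs its values were 8.56, 7.37 and 5.42. All 6 Schwann cell arrays were above the 3 SKP arrays, which themselves spread over more than 3 log2 units. The means were 11.23 ± 0.12, 10.55 ± 0.87 and 7.12 ± 1.59 (SD, n = 3 each). Nerve Schwann cells exceeded SKPs by 4.11 with a standard error of 0.69, a ratio of 17.3-fold, at a limma adjusted p of 0.000758 (loess 3.87). SKP-derived Schwann cells exceeded SKPs by 3.43, a ratio of 10.8-fold, at a limma adjusted p of 0.00347 (loess 3.38). The Schwann cell groups overlapped, and their difference of -0.68 had a 95% interval from -2.23 to 0.87.

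Sfrp2, a relative of Sfrp1, went the other way. Its log2 values were 7.32, 7.91 and 8.80 in SKPs, 5.90, 5.71 and 5.55 in nerve Schwann cells, and 5.07, 5.18 and 4.80 in SKP-derived Schwann cells. No value of 1 group overlapped with another group on the deposited scale. After loess the Schwann cell groups overlapped. The means were 8.01 ± 0.74, 5.72 ± 0.18 and 5.02 ± 0.20 in that order (SD, n = 3 each). Nerve Schwann cells were 4.90-fold below SKPs (log2 difference -2.29, standard error 0.32, limma adjusted p 0.00027, loess -2.94). SKP-derived Schwann cells were 7.99-fold below SKPs (log2 difference -3.00, limma adjusted p 9.22e-05, loess -3.10). Between SKP-derived and nerve Schwann cells the difference was -0.71 with a limma adjusted p of 0.0951. It passed the threshold without SKP array 1 (0.0384) or SKP array 3 (0.0153), arrays that enter this comparison only through the shared spread. It also passed in a fit of only these 2 groups (0.00955) and with array weights (0.00872), and after loess it was -0.16 (0.819).

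Sfrp4, another secreted Frizzled-related protein, had log2 values of 6.79, 7.41 and 8.15 in nerve Schwann cells and 5.66, 5.56 and 5.85 in SKPs. The SKP-derived Schwann cell arrays stood at 7.39, 8.30 and 5.70. The nerve arrays were all above the SKP arrays, while SKP-derived array 3 lay inside the SKP range. Nerve Schwann cells (7.45 ± 0.68, SD, n = 3) were called above SKPs (5.69 ± 0.15, SD, n = 3), with a difference of 1.76, a standard error of 0.57 and a limma adjusted p of 0.0219. The call was lost after loess (1.23, adjusted p 0.107), and without nerve array 3 (1.41, 0.0804), SKP array 1 (1.74, 0.0527) or SKP array 2 (1.69, 0.0611). In SKP-derived Schwann cells (7.13 ± 1.32, SD, n = 3) the difference of 1.43 had a limma adjusted p of 0.0708. Without SKP-derived array 3 that difference was 2.15 with an adjusted p of 0.00383, and without SKP-derived array 2 it was 0.85 with an adjusted p of 0.216.

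Frzb, also called secreted Frizzled-related protein 3, had log2 values of 6.53, 6.05 and 6.47 in nerve Schwann cells and 6.50, 5.76 and 5.47 in SKPs. In SKP-derived Schwann cells they were 5.72, 10.27 and 6.44. The value of SKP-derived array 2 stood alone above the other 8 arrays, and the groups overlapped in every pairing. Nerve Schwann cells minus SKPs gave 0.44 (standard error 0.95, limma adjusted p 0.703), with the opposite sign after loess (-0.13). SKP-derived Schwann cells minus SKPs gave 1.57 with a limma adjusted p of 0.216, which dropped to 0.17 without SKP-derived array 2 and was 2.45 without SKP-derived array 1.

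Among the Dickkopf genes, Dkk3, a divergent member of the family, had nearly the same log2 value in every SKP array: 10.60, 10.60 and 10.63. It stood at 7.95, 7.76 and 7.65 in nerve Schwann cells and at 7.42, 7.33 and 6.72 in SKP-derived Schwann cells. The groups did not overlap on the deposited scale. The means were 10.61 ± 0.01, 7.79 ± 0.15 and 7.15 ± 0.38 in that order (SD, n = 3 each). Nerve Schwann cells were 7.07-fold below SKPs (log2 difference -2.82, standard error 0.19, limma adjusted p 7.34e-06). SKP-derived Schwann cells had a log2 difference from SKPs of -3.46 with a limma adjusted p of 3e-06, and loess gave -3.10 and -3.44 for these comparisons. Dkk3 was also lower in SKP-derived than in nerve Schwann cells, by -0.63 with a limma adjusted p of 0.0241. That difference is close to the shift of the median gene, -0.45, and was -0.34 after loess (adjusted p 0.432). Its call was also lost without nerve array 1 (-0.55, 0.0858) or nerve array 2 (-0.65, 0.0654).

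Dkk2, a co-receptor ligand of the same family, had log2 values of 7.65, 6.55 and 5.69 in SKPs, 5.56, 5.31 and 5.12 in nerve Schwann cells, and 4.59, 6.85 and 5.28 in SKP-derived Schwann cells. The nerve arrays were all below the SKP arrays, and SKP-derived array 2 lay inside the SKP range. Nerve Schwann cells (5.33 ± 0.22, SD, n = 3) differed from SKPs (6.63 ± 0.98, SD, n = 3) by -1.31 with a standard error of 0.59 and a limma adjusted p of 0.0764. After loess that difference was -2.03 with an adjusted p of 0.0187. It also passed the threshold without SKP array 3 (-1.78, 0.0246) or SKP-derived array 2 (-1.31, 0.028), while without SKP array 1 it shrank to -0.79 (0.259). The difference in SKP-derived Schwann cells (5.58 ± 1.16, SD, n = 3) was -1.06 with a limma adjusted p of 0.179, and -1.70 with an adjusted p of 0.026 without SKP-derived array 2. Without SKP array 1 it was -0.55 (adjusted p 0.493).

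Wif1, the Wnt inhibitory factor, stood at 7.50, 6.91 and 6.93 in SKPs, at 6.08, 6.11 and 6.21 in nerve Schwann cells and at 5.85, 5.91 and 5.48 in SKP-derived Schwann cells. All SKP arrays were above all Schwann cell arrays, with a smaller gap than for Wnt5a or Dkk3. The log2 difference from SKPs was -0.98 in nerve Schwann cells (standard error 0.19, limma adjusted p 0.00157) and -1.37 in SKP-derived Schwann cells (limma adjusted p 0.000426). After loess the nerve difference was -1.61, more than 1.5 times the deposited value, and the SKP-derived difference was -1.47. Between the Schwann cell groups the deposited difference was -0.39 (limma adjusted p 0.121) and the loess difference 0.14.

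The target genes were read beside the sequences upstream of them, because TCF and LEF proteins bind a short motif. Promoter windows of RefSeq, assembly GRCr8, from 250 bases before to 50 bases after a gene's start, were matched by symbol for 6 of the 10 genes (Wnt5a, Frzb, Sfrp2, Wif1, Axin2 and Lef1). The motifs searched on both strands share their first 5 letters. They were CTTTGAA (held by 5.4% of all rat windows), CTTTGAT (by 3.63%), CTTTGTA (by 3.68%) and CTTTGTT (by 5.98%). The windows of the 2 target genes are shown, 5′ to 3′ on the plus strand, with matches in capitals. Axin2 lies at chr10:94398535-94398834 and Lef1 at chr2:222340463-222340762.
Axin2: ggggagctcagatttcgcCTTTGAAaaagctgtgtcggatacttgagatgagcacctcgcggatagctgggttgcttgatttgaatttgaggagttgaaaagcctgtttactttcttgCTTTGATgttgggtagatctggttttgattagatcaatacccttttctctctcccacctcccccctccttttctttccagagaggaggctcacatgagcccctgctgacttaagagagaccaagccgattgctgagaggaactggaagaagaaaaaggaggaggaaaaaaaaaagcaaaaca
Lef1: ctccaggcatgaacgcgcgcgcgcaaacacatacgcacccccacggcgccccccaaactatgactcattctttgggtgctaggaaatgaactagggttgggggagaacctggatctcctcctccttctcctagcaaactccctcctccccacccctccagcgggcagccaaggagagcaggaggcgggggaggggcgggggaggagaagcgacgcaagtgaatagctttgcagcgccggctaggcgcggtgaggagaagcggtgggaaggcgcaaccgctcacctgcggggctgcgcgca
The Axin2 window held 2 matches that do not overlap, CTTTGAA at -232 and CTTTGAT at -132 from the start. The Lef1 window and the other 4 windows held 0. Of 33469 rat promoter windows of this length, 17.1% held at least 1 match and 2.12% held 2 or more. A match describes the letters of a window and does not show binding.

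Axin2, a scaffold of the beta-catenin destruction complex that is itself induced by the pathway, had log2 values of 9.08, 9.47 and 7.73 in SKPs. Nerve Schwann cells stood at 7.79, 7.89 and 7.92 and SKP-derived Schwann cells at 7.57, 7.42 and 7.62. SKP arrays 1 and 2 were well above the rest, while SKP array 3 lay below all nerve arrays and just above the SKP-derived ones. SKP-derived Schwann cells (7.54 ± 0.11, SD, n = 3) were called below SKPs (8.76 ± 0.91, SD, n = 3), with a log2 difference of -1.22, a standard error of 0.36 and a limma adjusted p of 0.0233 (loess -1.19). This call was lost without SKP-derived array 1 (-1.24, 0.0562) or 2 (-1.16, 0.0615), without SKP array 1 (-1.06, 0.0766) or 2 (-0.87, 0.0739), and in a fit of only these 2 groups (0.0563). Nerve Schwann cells (7.87 ± 0.06, SD, n = 3) differed from SKPs by -0.89 with a limma adjusted p of 0.0537, and by -1.2 after loess (0.0277). Without SKP array 3 the differences were -1.41 in nerve Schwann cells (adjusted p 0.000148) and -1.74 in SKP-derived Schwann cells (adjusted p 5.62e-05). Without SKP array 2 the nerve difference was -0.54 (adjusted p 0.193).

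Lef1, a transcription factor that partners with beta-catenin, stood at 7.55, 7.50 and 7.53 in SKPs and at 6.25, 6.48 and 6.33 in nerve Schwann cells. The SKP-derived Schwann cell arrays were at 6.15, 7.47 and 6.27. SKP-derived array 2 came within 0.1 log2 units of the SKPs, and the other 5 Schwann cell arrays were at least 1 log2 unit below them. Nerve Schwann cells (6.36 ± 0.12, SD, n = 3) were 2.26-fold below SKPs (7.53 ± 0.03, SD, n = 3), with a log2 difference of -1.17, a standard error of 0.30 and a limma adjusted p of 0.00679 (loess -1.68). SKP-derived Schwann cells (6.63 ± 0.73, SD, n = 3) differed from SKPs by -0.90 with a limma adjusted p of 0.0362. Without SKP-derived array 2 this difference was -1.32 with an adjusted p of 0.000131. Leaving out any 1 of the other 8 arrays ended the call, with adjusted p-values from 0.0525 to 0.127, and so did a fit of only these 2 groups (0.0794).

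Counted together, 7 of the 10 genes were called between nerve Schwann cells and SKPs, where 64.6% of all genes tested were called. Sfrp1 and Sfrp4 were the 2 called higher, beside 49.7% of all genes, and 5 were called lower, beside 14.9% of all genes. After loess 1 was higher and 7 were lower, with Dkk2 and Axin2 added and Sfrp4 lost, beside 22.4% and 25.6% of all genes (48.0% in either direction). The median difference of the 10 genes was -1.08 as deposited and -1.64 after loess, against 0.46 and -0.03 for all genes. With SKP-derived array 2 and SKP array 3 both left out, 9 of the 10 were called, 2 higher and 7 lower. Of all 14506 genes, 10106 were then called, 7642 higher and 2464 lower.

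Between SKP-derived Schwann cells and SKPs, 7 of the 10 genes were called, beside 41.6% of all genes tested. Sfrp1 alone was higher (19.3% of all genes) and 6 were lower (22.3% of all genes), and the same calls were made under all 4 scalings. After loess 42.5% of all genes were called, 18.6% higher and 23.9% lower. The median difference of the 10 genes was -1.14, against -0.01 for all genes. Without both of those arrays 8 of the 10 were called, 1 higher and 7 lower. Of all 14506 genes, 6201 were then called, 2876 higher and 3325 lower.

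Between SKP-derived and nerve Schwann cells, Dkk3 was the 1 gene of 10 called, beside 43.7% of all genes tested, of which 42.3% were called lower. After loess 0 of the 10 were called by limma, beside 1.33% of all genes (0.731% higher and 0.600% lower). At an unadjusted limma p under 0.05, 1 of the 10, Lef1, passed, beside 20% of all genes. The median difference was -0.32 as deposited and 0.15 after loess. The intervals stayed wide for the genes that vary within a group: that of Frzb ran from -1.01 to 3.27 and that of Dkk2 from -1.07 to 1.57 as deposited. Without SKP-derived array 2 and SKP array 3, 2 of the 10 were called, beside 7252 of all 14506 genes.

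**Figure D2:**
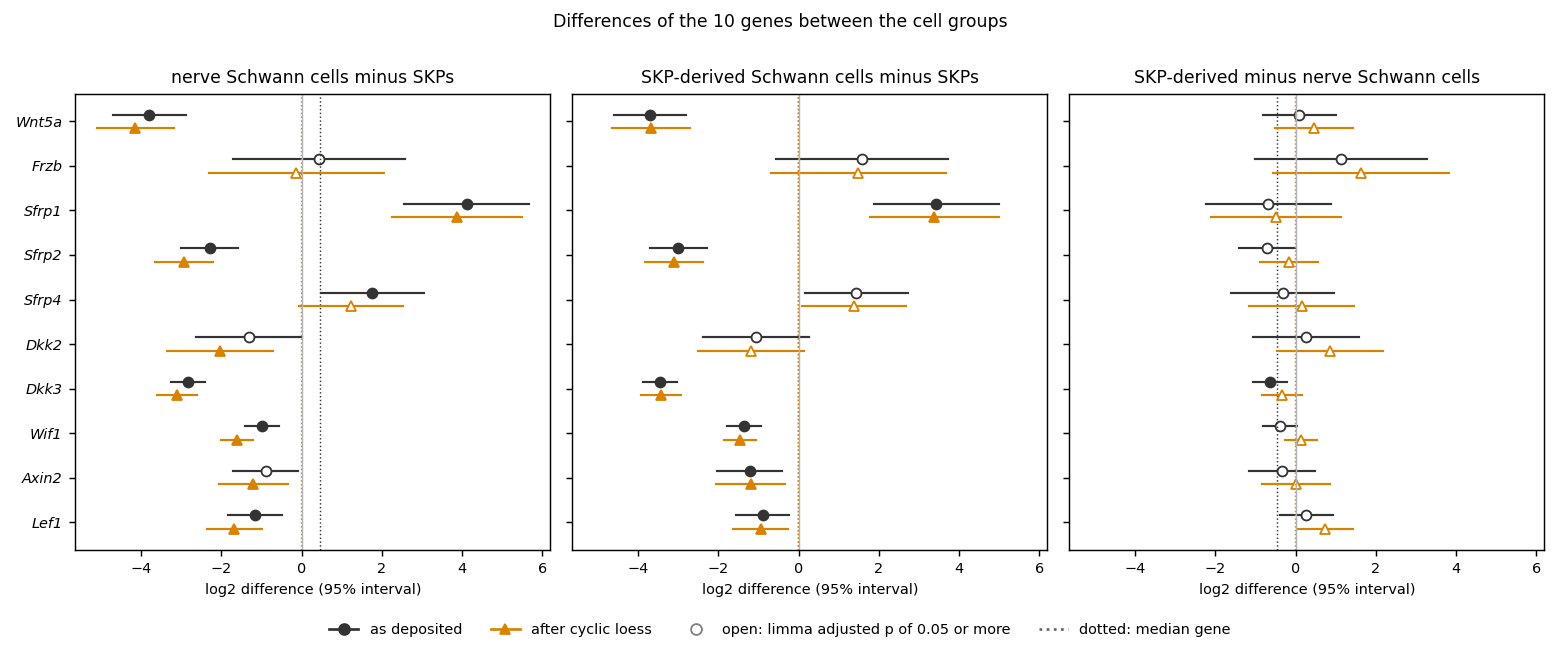
Log2 differences of the 10 genes in the 3 comparisons, with 95% intervals on the horizontal axis. Circles are deposited values, triangles are values after cyclic loess, filled marks have a limma adjusted p under 0.05, and dotted lines mark the median gene of all 14506. Wnt5a, Sfrp2 and Dkk3 lie furthest below 0 in both comparisons with SKPs, Sfrp1 lies above it at 4.11 and 3.43, and the intervals of most genes cross 0 between the Schwann cell groups.

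Several of the 10 genes stood apart in SKP-derived array 2, in SKP array 3 and in SKP array 1. SKP-derived array 2 exceeded the mean of arrays 1 and 3 by 4.19 at Frzb, a distance reached by only 3 of the 14506 genes (0.0207%). It was also above them by 1.92 at Dkk2, 1.76 at Sfrp4, 1.26 at Lef1 and 0.89 at Wnt5a, and below them by -1.43 at Sfrp1, against a median absolute distance of 0.27 over all genes. Sfrp4 departed further in SKP-derived array 3 (-2.14), and by -0.99 and 1.05 in nerve arrays 1 and 3. In SKP-derived array 2, 9 of the 12 dermal mesenchyme markers were above the mean of arrays 1 and 3. The list means were 8.25, 10.02 and 9.07 in SKP-derived arrays 1, 2 and 3. Among these markers, Prrx1, a mesenchymal transcription factor, stood at 6.78, 10.62 and 7.91. The 3 markers that went the other way had their lowest value in array 2. They were Col1a1 (11.94, 11.01 and 11.34), Col1a2 (11.35, 10.82 and 10.98) and Pdgfrb (10.56, 9.72 and 9.90). The Schwann cell marker mean of SKP-derived array 2 was the lowest of its group at 10.23. Sox10, the lineage's transcription factor, stood there at 9.96 against 11.17 and 10.90. The part of the dermal and Schwann cell markers in the values of the 10 genes was not tested.

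SKP array 3 differed from the mean of SKP arrays 1 and 2 by -2.55 at Sfrp1, -1.55 at Axin2, -1.46 at Wnt5a and -1.41 at Dkk2, and by 1.18 at Sfrp2. Dkk3 and Lef1 differed there by 0.02 and 0.01. SKP array 1 differed from the mean of SKP arrays 2 and 3 by 2.17 at Sfrp1, 1.53 at Dkk2 and -1.03 at Sfrp2. In SKP array 1, 0.393%, 1.49% and 3.8% of genes lay at least as far, against 0.834%, 3.64% and 5.28% in SKP array 3. Wnt5a and Axin2 went the other way, with 4.6% and 19.7% in SKP array 1 against 3.32% and 2.9%. All 12 dermal mesenchyme markers were lower in SKP array 3, with a median of -1.09, and Col3a1, a fibrillar collagen, stood at 13.01, 12.86 and 9.36. The 6 macrophage markers were lower too: their mean was 7.96, 6.41 and 5.71 in SKP arrays 1, 2 and 3, beside 5.80 to 5.90 in nerve and 5.07 to 5.41 in SKP-derived Schwann cells. Ptprc (7.66, 4.64 and 4.13), Csf1r (7.42, 5.73 and 5.57), Aif1 (5.81, 4.84 and 4.82) and Itgam (6.36, 4.63 and 4.05) were mainly high in SKP array 1. Cd68 (9.76, 8.39 and 6.47) and Cd14 (10.77, 10.25 and 9.18) dropped more from SKP array 2 to 3. The part of the dermal and macrophage markers in the values of the 10 genes was not tested. The deposited values are on a log2 scale with no true zero, so no marker could be called absent.

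**Figure D3:**
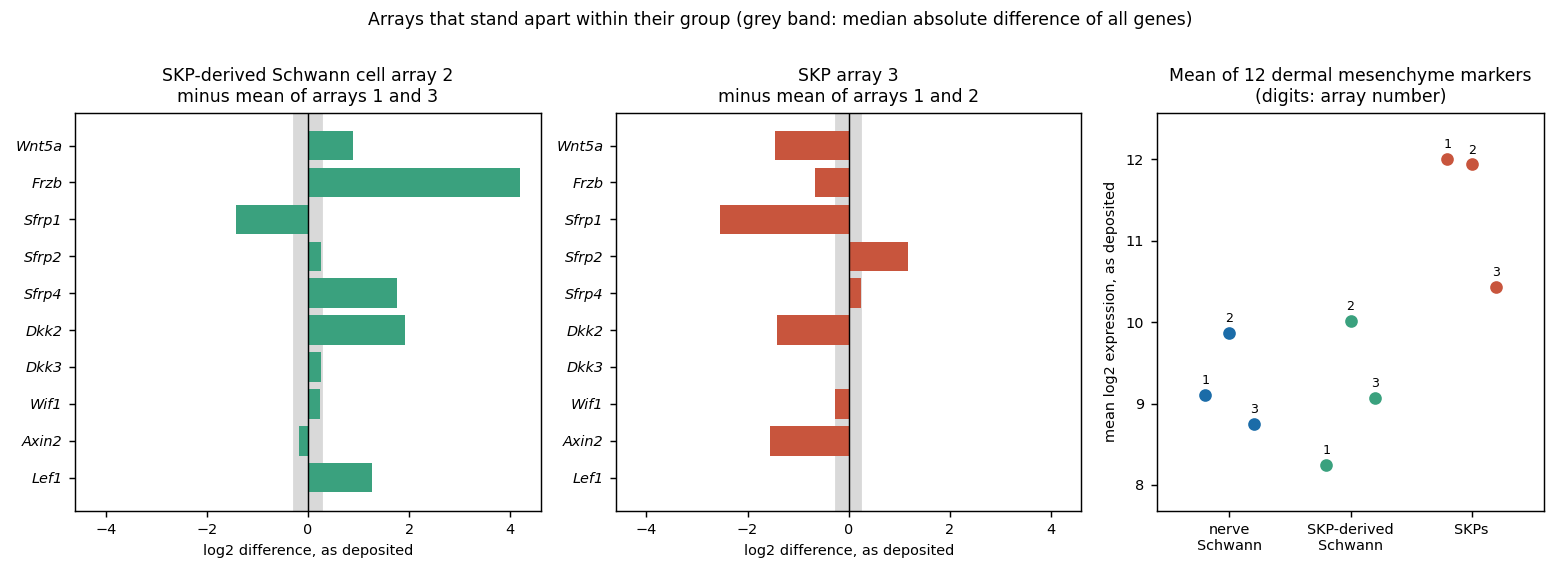
The left and middle panels give, for each of the 10 genes, SKP-derived Schwann cell array 2 and SKP array 3 minus the mean of the other arrays of their group, in log2 units as deposited, with a grey band for the median absolute difference of all genes. The right panel gives the mean deposited log2 value of 12 dermal mesenchyme markers in each array. Frzb reaches 4.19 in the left panel, Sfrp1 reaches -2.55 in the middle panel, and the marker mean of SKP array 3 is 10.43 beside 12.01 and 11.94.

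Other genes of the pathway came from a list of 105, of which 85 were measured. Between nerve Schwann cells and SKPs 49 were called higher and 11 lower, and after loess 28 higher and 15 lower. Of all genes, 49.7% were called higher and 14.9% lower there, and 22.4% and 25.6% after loess. Between SKP-derived Schwann cells and SKPs 25 were called higher and 18 lower, and after loess 25 and 21. The shares of all genes were 19.3% higher and 22.3% lower, and 18.6% and 23.9% after loess. The median difference of the list was 0.68 in nerve Schwann cells and 0.11 in SKP-derived Schwann cells, against 0.46 and -0.01 for all genes. Between the Schwann cell groups, limma called 33 of the 85 (38.8%) lower and 0 higher as deposited. Of all genes, 42.3% were called lower and 1.33% higher. At an unadjusted limma p under 0.05, 2 of the 85 were higher, beside 334 of all 14506 genes. Without nerve array 2 or nerve array 3, 19 and 20 of the 85 were called, beside 3755 and 4005 of all genes. After loess limma called 0, and 18 (21.2%) had an unadjusted p under 0.05, beside 20% of all genes.

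Of 20 ligands and agonists, 2 were called higher and 7 lower in SKP-derived Schwann cells than in SKPs, beside 19.3% and 22.3% of all genes. In nerve Schwann cells 11 were higher and 5 lower as deposited, beside 49.7% and 14.9% of all genes. After loess 3 were higher and 6 lower, beside 22.4% and 25.6%. Wnt16 was lower in both, with log2 differences of -2.65 in nerve and -3.01 in SKP-derived Schwann cells and values of 8.81, 9.14 and 9.26 in SKPs and none above 6.48 in Schwann cells. Wnt7b, a canonical ligand, differed by -2.72 and -2.70 in the same order. Rspo3, an R-spondin that amplifies Wnt signals through Lgr receptors, differed by -1.57 and -1.86, and Wnt4 by -1.05 and -1.57. Wls, the carrier that brings Wnt proteins to the cell surface, differed by -2.94 and -3.74, and all of these were called. Like Frzb, it was high in SKP-derived array 2, at 9.63 against 6.04 and 6.46. Porcn, the acyltransferase that makes Wnt proteins fit for secretion, was called higher in nerve Schwann cells (0.80), but not after loess (0.53, adjusted p 0.118) or without nerve array 2 (0.68, 0.0711). Without SKP array 3 its difference was 0.52.

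Against SKPs, 11 of the 23 receptors and co-receptors were called higher and 3 lower in the nerve cultures, and 9 and 5 in the SKP-derived ones. Of all genes, 49.7% and 14.9% were called so in the nerve cultures, and 19.3% and 22.3% in the SKP-derived ones. Celsr2, a cadherin of the planar polarity branch, was higher by 5.39 and 5.0. Lgr4, a receptor for R-spondins, was higher by 4.03 and 3.68, and Fzd8, a Frizzled receptor, by 2.88 and 2.21. Ptk7, a pseudokinase co-receptor, was lower, at -2.08 and -2.98. These 4 genes were called in both comparisons under all 4 scalings.

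All 5 other extracellular antagonists were called higher in nerve Schwann cells than in SKPs as deposited, and 2 after loess. The shares of all genes called higher were 49.7% and 22.4%. Sostdc1, a secreted inhibitor of Wnt and BMP signals, differed most, by 6.19 in nerve and 5.53 in SKP-derived Schwann cells. Sfrp5 was higher by 0.90, Dkk4 by 0.83 and Sost, which encodes sclerostin, by 0.81 in nerve Schwann cells. After loess these were 0.38 (adjusted p 0.0511), 0.19 (0.168) and 0.36 (0.0342). In SKP-derived Schwann cells Sfrp5 was called at 0.45 (adjusted p 0.0345). That call was lost without nerve array 1 (0.0564) or 3 (0.0526), SKP-derived array 1 (0.115) or 3 (0.0508), or SKP array 1 (0.103), and in a fit with the replicate number as a block (0.0565). Median centring (0.126), quantile normalisation (0.106) and a fit of only these 2 groups (0.0877) ended it too.

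Of 24 intracellular transduction genes, 17 were called higher than in SKPs in the nerve cultures as deposited, beside 49.7% of all genes. After loess 11 were higher and 2 lower, beside 22.4% and 25.6% of all genes. In SKP-derived Schwann cells 10 were higher and 2 lower, beside 19.3% and 22.3%. Dvl3, a Dishevelled adaptor, was higher by 2.22 and 1.42, and Apc2, a relative of the destruction complex protein APC, by 2.18 and 1.67. The co-repressors Tle1 and Tle3 were higher by 1.99 and 1.84 in nerve and by 1.08 and 1.2 in SKP-derived Schwann cells.

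Of 11 other feedback and target genes, nerve Schwann cells had 4 called higher and 2 called lower against SKPs, beside 49.7% and 14.9% of all genes. SKP-derived Schwann cells had 2 higher and 3 lower, beside 19.3% and 22.3%. The 11 genes did not all share the direction of Axin2 and Lef1. Lgr5, an R-spondin receptor and known target, was higher by 5.19 and 4.45, and Nkd1, a feedback inhibitor of Dishevelled, by 2.25 and 2.24. Notum, a secreted enzyme that inactivates Wnt proteins, was lower, at -1.5 in nerve and -2.19 in SKP-derived Schwann cells. Nkd2, a relative of Nkd1, was lower, at -1.51, in SKP-derived Schwann cells (limma adjusted p 0.0198) and differed by 0.29 in nerve Schwann cells (0.574). The Nkd2 call was lost without SKP array 1 (-1.39, 0.0625) or SKP array 2 (-1.36, 0.0662).

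**Figure D4:**
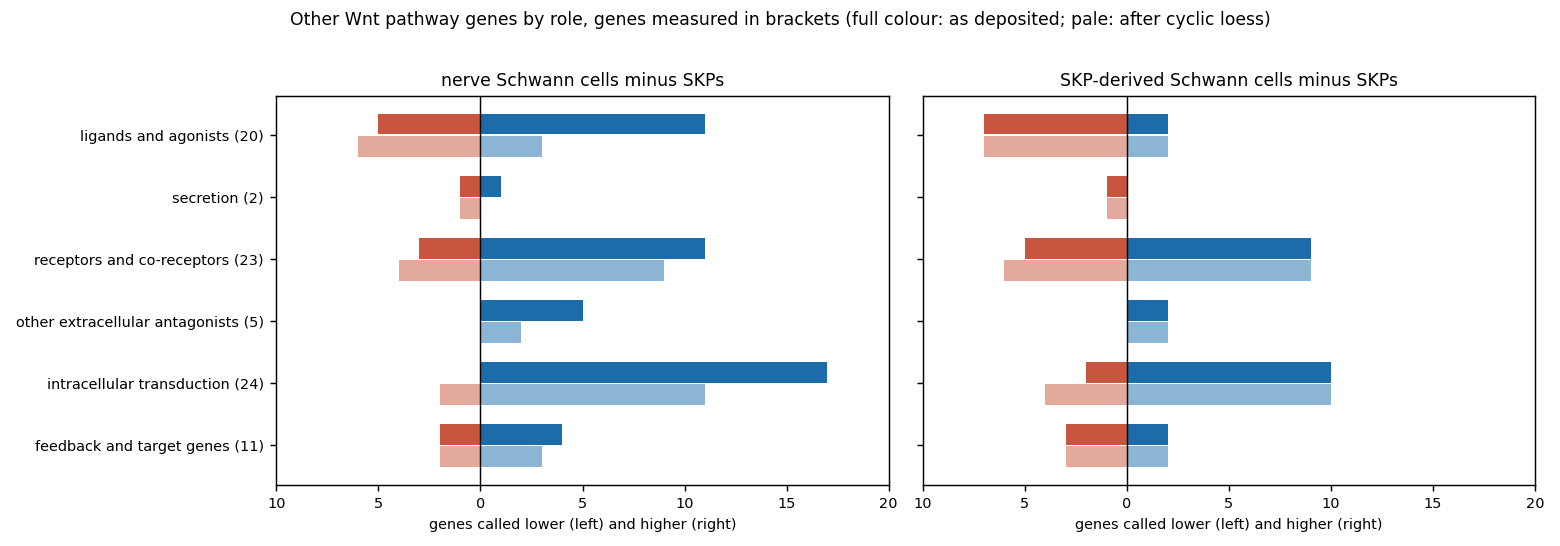
Number of other Wnt pathway genes called lower (left of 0) and higher (right of 0) in nerve and in SKP-derived Schwann cells than in SKPs, by role, with the number measured in brackets. Full colour gives calls on the deposited values and pale colour after cyclic loess. In nerve Schwann cells 11 ligands and agonists are called higher as deposited and 3 after loess, beside 49.7% and 22.4% of all genes. In SKP-derived Schwann cells 2 are called higher on both scales, beside 19.3% and 18.6% of all genes.

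The genes whose profiles were most like those of Wnt5a and Axin2 were found over all 9 arrays by the root mean square difference of loess values, each gene centred on its own mean. Nearest to Wnt5a were Clec2g, a C-type lectin gene, at 0.282 log2 units, the cytokine Il7 at 0.301 and Scara5, a scavenger receptor that binds ferritin, at 0.302. Scara5 stood at 11.28, 11.54 and 9.79 in SKPs, with a range of 6.57 to 7.18 over the Schwann cell arrays as deposited. SKP array 3 was thus the lowest of its group for Scara5 as it was for Wnt5a. Nearest to Axin2 were Inhbb, an inhibin and activin subunit, at 0.155, the BMP antagonist Nog at 0.169 and Tnip1, an inhibitor of NF-kappaB signalling, at 0.182. Inhbb stood at 9.22, 9.11 and 7.79 in SKPs, and at 7.79, 7.71 and 7.79 in nerve Schwann cells. These distances describe the 9 arrays and were given no test.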

How the data were processed

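RNA of 9 cultures was measured on Affymetrix Rat Gene 1.0 ST arrays. The authors deposited log2 expression values for 29214 features. Per the submitters' processing notes, RMA and the program Affymetrix Expression Console were used to make them. Not given in the sources used here are the tool versions, a genome build and whether the arrays were normalised jointly. The platform annotation names 1 gene for 15310 features, several for 323 and none for 13581. For the 527 genes with more than 1 feature, the feature of the highest mean stood for the gene, which left 14506 genes.

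Group means were fitted to all 9 arrays with limma 3.58.1 in R 4.3.3 (lmFit, eBayes), and the procedure was tested on simulated data. Every adjusted p is limma's, adjusted with Benjamini-Hochberg within a comparison. It was adjusted over 14506 genes, except over 7253 with genes below the median level left out and over 15310 with all features. A gene was called, or said to have risen or fallen, at an adjusted p under 0.05. No filter on low values was set. The number of arrays limits the precision, and detection calls were not used here.

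The 10 genes, the pathway list and the marker lists were chosen with earlier results of these data known. By rule, the text names all 10 genes, up to 4 called genes per role of the pathway list with the largest absolute difference, and the 3 profiles nearest to Wnt5a and to Axin2. Alternatives were median centring, cyclic loess, quantile normalisation, leaving out genes below the median level, all features or feature means per gene, fits of 2 groups, array weights, a trended and robust variance, a replicate block, a 2-fold minimum, a threshold of 0.01 and leaving out each array. Calls under all 4 scalings, and leaving out both SKP-derived array 2 and SKP array 3, were added after seeing the data.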

Additional observations from a re-analysis of the deposited data

How the results depend on the processing

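Of 642 values of the 10 genes under an alternative setting, 556 kept their direction and their side of the threshold, 33 lost the call, 26 gained it and 27 changed sign, the cause of which was not tested. In nerve Schwann cells minus SKPs, 6 to 9 of the 10 genes were called with each array left out in turn, beside 8016 to 9783 of all genes. Under all 4 scalings 6 of the 10 were called in the same direction. Leaving out genes below the median level removes members by construction. It kept 4 of the 10 genes, 7253 of all genes and 55 of the pathway list, and 3, 4203 and 35 of these were called. A 2-fold minimum gave 4174 of all genes and 36 of the list. Frzb changed sign to -0.16 under median centring, -0.13 under loess and -0.23 under quantile normalisation. In SKP-derived Schwann cells minus SKPs, 5 to 7 of the 10 were called with an array left out, beside 4865 to 5939 of all genes. With genes below the median level left out, all 4 of the 10 genes that were kept and 4183 of the 7253 genes kept were called. A threshold of 0.01 gave 3855 of all genes and a 2-fold minimum 2980. Frzb was at -0.047 without SKP-derived array 2 and SKP array 3.

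Between SKP-derived and nerve Schwann cells the counts followed the scaling. Median centring, loess and quantile normalisation called 716, 193 and 240 of all genes, and 0 of the 10 genes and 0 of the pathway list in each case. Leaving out genes below the median level called 600 of the 7253 genes kept, 0 of the 4 members kept and 5 of the 55 list genes kept. A threshold of 0.01 called 2818 of all genes, 0 of the 10 and 12 of the list, and a 2-fold minimum 807, 0 and 2. Array weights called 9226 of all genes, 3 of the 10 and 52 of the list. A fit of only these groups called 7398 of all genes and 3 of the 10. Leaving out both SKP-derived array 2 and SKP array 3 called 7252 of all genes and 2 of the 10. With each array left out in turn the range was 3755 to 7270 for all genes, with the lowest counts without a nerve array, 0 to 2 for the 10 genes and 19 to 41 for the list. Under all 4 scalings 0 of the 10 were called. Signs changed for Sfrp4 (0.15, 0.15 and 0.17 under the other scalings), Wif1 (0.084, 0.14 and 0.19) and Axin2 (0.14, 0.0083 and 0.0105), in the order median, loess, quantile. Array weights turned Wnt5a to -0.27, Dkk2 to -0.40 and Lef1 to -0.10. Without SKP-derived array 2 and SKP array 3, Wnt5a was at -0.20, Frzb at -0.27, Dkk2 at -0.39 and Lef1 at -0.15. With each array left out the ranges were -0.20 to 0.30 for Wnt5a, -0.27 to 2.01 for Frzb, -0.91 to 0.39 for Sfrp4, -0.39 to 0.74 for Dkk2 and -0.15 to 0.52 for Lef1.

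Whether the replicate numbers pair the samples is not settled by these arrays. Deviations of arrays with the same number correlated between -0.124 and 0.289 over 14506 genes. Those of arrays with different numbers correlated between -0.265 and 0.180. With the replicate number as a block, 7, 7 and 1 of the 10 genes were called in the 3 comparisons, with 60, 41 and 34 of the pathway list and 9294, 5898 and 6169 of all genes. Apart from Sfrp5, the block ended no call of the 10 genes, or of the named pathway genes against SKPs. Calls of the marker genes were not checked with the block. The signal above background is not known from these values, so low levels cannot be told from no expression.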

Other observations

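Sfrp2 was higher by 1.18 in SKP array 3 than in SKP arrays 1 and 2, while Sfrp1, Axin2, Wnt5a and Dkk2 had their lowest SKP value in that array. Its nearest profile over the 9 arrays, by root mean square difference of centred loess values, was Slc16a3 at 0.098 log2 units. Slc16a3 encodes a lactate-exporting monocarboxylate transporter. It stood at 8.92, 9.56 and 10.29 in SKP arrays 1, 2 and 3, with 7.03, 7.0 and 7.05 in nerve Schwann cells and 6.43, 6.47 and 6.34 in SKP-derived Schwann cells, as deposited. The next nearest was Akr1c14, an aldo-keto reductase, at 0.222, with 6.92, 7.26 and 7.98 in SKPs.

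Nearest to Frzb were Mfap4, an extracellular matrix glycoprotein of elastic fibres, at 0.511 and Slc29a1, a nucleoside transporter, at 0.595. Mfap4 stood at 7.39, 11.32 and 8.11 in SKP-derived Schwann cells and between 5.93 and 8.05 in the other arrays. Slc29a1 stood at 7.26, 10.27 and 7.17, and between 7.45 and 7.94 in the others. These 4 genes were chosen after their values were seen, and no test was made of them.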
